A study of Brachypodium distachyon with 11 samples.

Results

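The regions described here are places in the Brachypodium distachyon genome where ChIP peaks recurred away from any annotated gene. All deposited peaks of 10 ChIP libraries were merged wherever they overlapped by at least 1 bp, which gave 37936 merged regions on the 5 chromosomes. Of these, 8643 recurrent regions were listed in 5 to 9 of the 10 peak lists, and 1080 of them (12.5%) had their midpoint more than 2000 bp from every RefSeq gene of any biotype. These 1080 far regions are the subject, and the other 7563 recurrent regions, called near-gene regions, are what they are compared with. The members were chosen by how many lists held them and by their distance from genes, so the number of lists is a description and was not tested.

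The libraries came from seedlings in their second week of growth at 20 °C, in the Bd21-3 background, carrying a ubiquitin promoter construct that overexpresses a FLAG-tagged protein, which was precipitated with an anti-FLAG gel. ELF3_OX seedlings gave 7 libraries. Those from long days (LD) and from short days (SD) were sampled at ZT0, ZT4 and ZT20, where ZT is the number of hours after lights on, and that from constant light (LL) at ZT0 alone. phyC_OX seedlings gave 2 libraries, both LD at ZT20 and called PHYC 1 and PHYC 2 here only to name them, and PRR37_OX seedlings gave 1 library, LD at ZT4. Each library was a single sample, so p-values measure the spread between single libraries of different conditions. A protein made from a ubiquitin promoter is present in more cells and at other levels than the native protein, and no ChIP from untagged seedlings was analysed here, so regions that an anti-FLAG gel recovers without the tagged protein cannot be told apart from the rest.

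ELF3 is the scaffold of the evening complex, in which LUX supplies the DNA-binding domain and ELF4 is the small partner, and the complex represses clock and flowering genes. PHYC is a red-light receptor that promotes flowering of Brachypodium in long days, and PRR37, also called PPD1, is a pseudo-response regulator of the clock that promotes flowering of temperate grasses in long days. Plant transcription regulators are mostly found close to genes, and a peak far from any gene can mark a distal regulatory element or a transcript that the annotation lacks. The peak lists hold positions, enrichments and p-values and no sequence, and no genome sequence was used here, so no sequence is shown.

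The lists held 12344 to 16457 peaks each on the 5 chromosomes and had been called at a permissive p of about 0.1, with the lowest deposited -log10 p at 1.00. Fold enrichment is the pileup at a peak over the local background of the peak caller, and q is its p-value adjusted over the genome. The study's methods state that peaks were filtered at q under 0.01, but the deposited lists also hold peaks that do not pass it. Of the 1080 far regions, 1067 passed it in no list. Few peaks of recurrent regions passed q under 0.01, and the number of reads behind each list is unknown.

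Recurrent peaks were uncommon far from genes. Positions more than 2000 bp from a gene made up 34.1% of the genome, or 92.5 Mb, and held the 1080 regions. When every gene was moved by 50000 bp, 27.3% of the recurrent regions were far from a gene, against 12.5% in the true positions. The share of regions far from genes was lower among regions in many lists than among those in few, with 1 step upwards between 6 and 7 lists. It was 17.6% of the regions in a single list, 14.6% of those in 5 lists, 12.5% of those in 6, 13.2% of those in 7, 11.1% of those in 8, 10.5% of those in 9 and 8.77% of those in all 10. The far regions themselves were in 5 lists in 304 cases, in 6 in 221, in 7 in 211, in 8 in 166 and in 9 in 178.

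**Figure D1:**
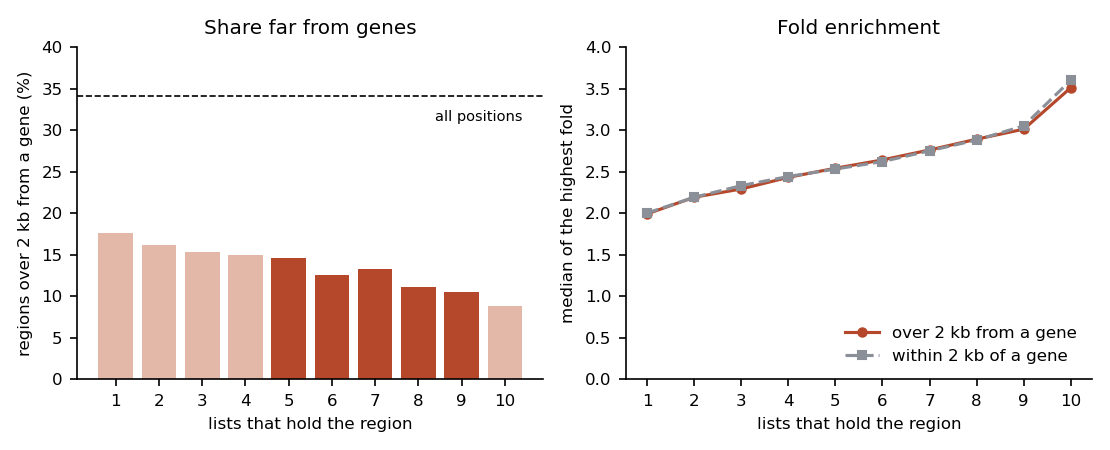
Left, percent of merged regions more than 2 kb from a gene (y axis) by the number of lists that hold the region (x axis), with the 5 to 9 lists of the recurrent regions in the darker colour and the share of all genome positions (34.1%) as a dashed line. Right, median over regions of the highest fold enrichment in any list, for regions over 2 kb from a gene and within 2 kb of a gene; both lines climb together, to 3.51 for far and 3.60 for near-gene regions in all 10 lists.

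Within the stretches far from genes, the far regions lay towards the edges. The distance from the midpoint to the nearest gene ran from 2001.0 to 92577.5 bp, with a median of 3676.2 bp. Distances of 2 to 5 kb held 731 regions (67.7%), against 41.0% of all positions over 2 kb from a gene. Distances of 5 to 10 kb held 237 regions (21.9%), against 26.4% of such positions. Distances of 10 to 20 kb held 85 (7.87%), against 17.6%, and distances over 20 kb held 27 (2.50%), against 14.9%. Per Mb of such sequence this made 19.3 regions at 2 to 5 kb, 9.69 at 5 to 10 kb, 5.22 at 10 to 20 kb and 1.95 beyond. Far regions in 1 to 4 lists had nearly the same shares, with 67.6% at 2 to 5 kb and 22.9% at 5 to 10 kb. They had 7.07% at 10 to 20 kb and 2.45% beyond, so the profile was not particular to the recurrent regions. The far regions in all 10 lists ended sooner, since 15 of 289 lay 10 to 20 kb from a gene and 0 lay farther.

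Gene density around the far regions followed the same order. The 1 Mb windows of the genome were ranked by their number of RefSeq genes and divided into 4 classes of about equal size, the poorest with 14.0 to 93.0 genes per Mb. The poorest class held 194 of the 1080 far regions (18.0%, 95% Wilson interval 15.8 to 20.4%, counting error only), against 40.6% of all positions over 2 kb from a gene. It held a similar share, 19.9%, of the regions equally far from genes but in only 1 to 4 lists. The density of far regions was 5.17 per Mb of far sequence in the poorest class, 11.4 in the next, 16.6 in the third and 24.7 in the richest. The order was present at a fixed distance, since at 2 to 5 kb from a gene the classes held 11.5, 15.9, 20.4 and 32.3 regions per Mb from the poorest to the richest. It did not hold throughout at 5 to 10 kb, where the values were 5.90, 10.0, 14.7 and 11.7. By chromosome, the far regions numbered 287 on chromosome 1, 266 on 2, 246 on 3, 180 on 4 and 101 on 5, or 12.0, 13.7, 12.3, 9.96 and 9.12 per Mb of far sequence.

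**Figure D2:**
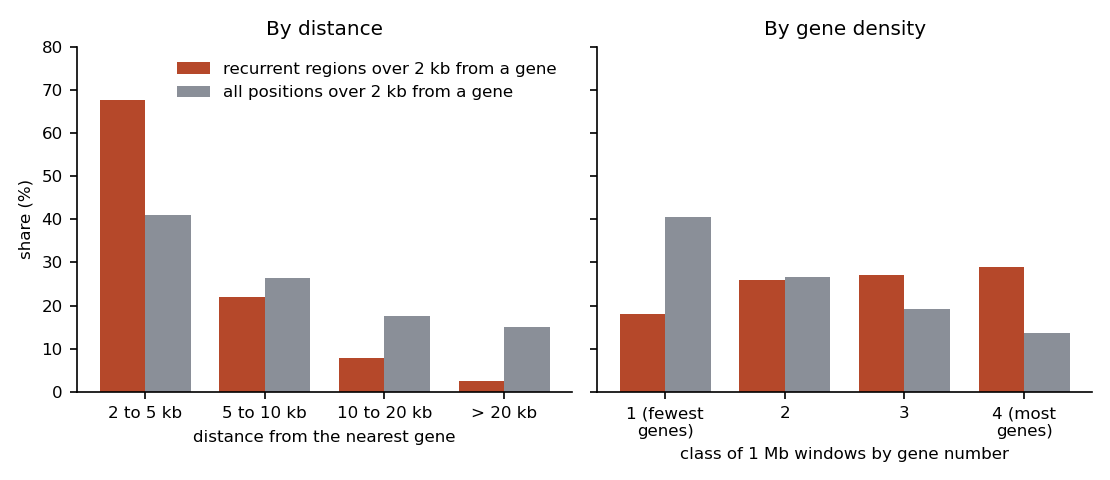
Share (y axis, %) of the 1080 far recurrent regions (left bars) and of all genome positions over 2 kb from a gene (right bars), by distance from the nearest gene (left panel) and by class of 1 Mb windows (1 to 4) ranked by gene number (right panel). The regions exceed the positions at 2 to 5 kb (67.7% against 41.0%) and fall below them in the windows with the fewest genes (18.0% against 40.6%).

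The gene nearest to a far region was protein-coding in 932 cases (86.3%), against 82.5% of all positions over 2 kb from a gene, a lncRNA gene in 91 (8.43%, against 11.0%), a pseudogene in 37 (3.43%, against 4.34%) and of another biotype in 20 (1.85%, against 2.22%). The annotation has 10073 gaps of over 4000 bp between genes. Of these, 949 (9.42%) held a far region: 840 held 1, 92 held 2 and 17 held 3 or more, up to 6. Gaps with a far region had a median length of 12709.0 bp, against 8176.0 bp for all gaps of over 4000 bp. A longer gap has more positions that the distance rule admits, and no allowance was made for this. Another far region lay within 10 kb of 229 of the 1080 (21.2%, 95% Wilson interval 18.9 to 23.7%), and 46 had one within 1 kb. Near-gene regions had one of their own kind within 10 kb in 54.0% of cases, but they were more numerous.

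A run of 4 far regions, the most that followed each other at 10 kb or less, occurred at 2 places. On chromosome 4 they spanned 2353186 to 2357930, the first of them 24934.5 bp from LOC100843611, with highest folds of 3.73, 3.11, 2.28 and 2.58 in order of position. The first of these, chr4:2353186-2353635, was in 8 lists and reached 3.73 in ELF3 LL ZT0, against 2.36 to 2.83 in the other ELF3 lists that held it. On chromosome 1 they spanned 25849639 to 25859760, between LOC100831320 and LOC100833637, with highest folds of 2.70, 3.18, 2.68 and 2.13. None of these 8 regions passed q under 0.01 in a list, and all were picked after their values were seen.

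As sites, the far regions resembled the near-gene regions. Their median width was 396.0 bp (204 to 1393), against 399 bp for near-gene regions. The highest fold of a region in any list ran from 1.92 to 15.8 with a median of 2.71, against 1.67 to 5.59 with a median of 2.74. The highest fold was at least 3 in 25.8% of far regions, against 28.3% of near-gene regions, and at least 4 in 16 of them (1.48%), against 87 near-gene regions (1.15%). Within a region, the highest fold was a median of 1.38 times the lowest (1.06 to 3.04), against 1.37 times near genes. The summits of a region in its lists spread over a median of 111 bp, against 110 bp near genes.

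Compared library by library, far regions had slightly lower folds. The median fold of the far regions listed in a library was 2.35 in ELF3 LD ZT0, 2.43 in SD ZT0, 2.37 in LL ZT0, 2.30 in LD ZT4, 2.28 in SD ZT4, 2.36 in LD ZT20 and 2.23 in SD ZT20. It was 2.32 in PHYC 1, 2.28 in PHYC 2 and 2.16 in PRR37. The near-gene regions had medians of 2.40, 2.43, 2.41, 2.35, 2.31, 2.42, 2.33, 2.37, 2.29 and 2.19 in the same order. The difference in median log2 fold, far minus near-gene, was -0.0272 ± 0.0162 (SD, n = 10) and below 0 in 10 of 10 libraries (exact two-sided sign-flip permutation over libraries, p = 0.00195, the smallest possible; 0.00977 after Benjamini-Hochberg adjustment over 5 tests). It was -0.00777 for regions beyond 5000 bp against all recurrent regions within 5000 bp (p = 0.139 in the same exact test). Among peaks of -log10 p above 2 it was 0.0134 (p = 0.0195 in the same exact test). Far regions were in fewer lists, with 16.5% of them in 9 lists against 20.1% of near-gene regions. Taken within each number of lists and averaged, the difference in median log2 fold was -0.0149 (p = 0.00586 in the same exact test). The median peak width differed by 1.40 ± 6.15 bp (SD, n = 10; p = 0.539, adjusted 0.674, same exact test).

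Each library listed between 573 and 816 of the 1080 far regions. The ELF3 libraries listed 75.6% in LD ZT0, 68.9% in SD ZT0, 75.6% in LL ZT0, 69.4% in LD ZT4, 64.6% in SD ZT4, 71.9% in LD ZT20 and 75.0% in SD ZT20. PHYC 1 listed 62.9%, PHYC 2 listed 53.1% and PRR37 listed 54.8%. Every ELF3 library thus listed more far regions than any of the other 3. The mean was 71.5 ± 4.16% for ELF3 (SD, n = 7) and 56.9 ± 5.23% for the others (SD, n = 3), a difference of 14.6 points. No p-value is given for this difference, because listing chose the members: with 7 ELF3 lists of 10, a region in 5 lists is in at least 2 ELF3 lists. Near-gene regions, chosen by the same number of lists, differed in the same direction, with 61.5 to 82.8% in ELF3 lists and 52.2 to 68.1% in the others, and each ELF3 list was longer than any of the other 3.

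**Figure D3:**
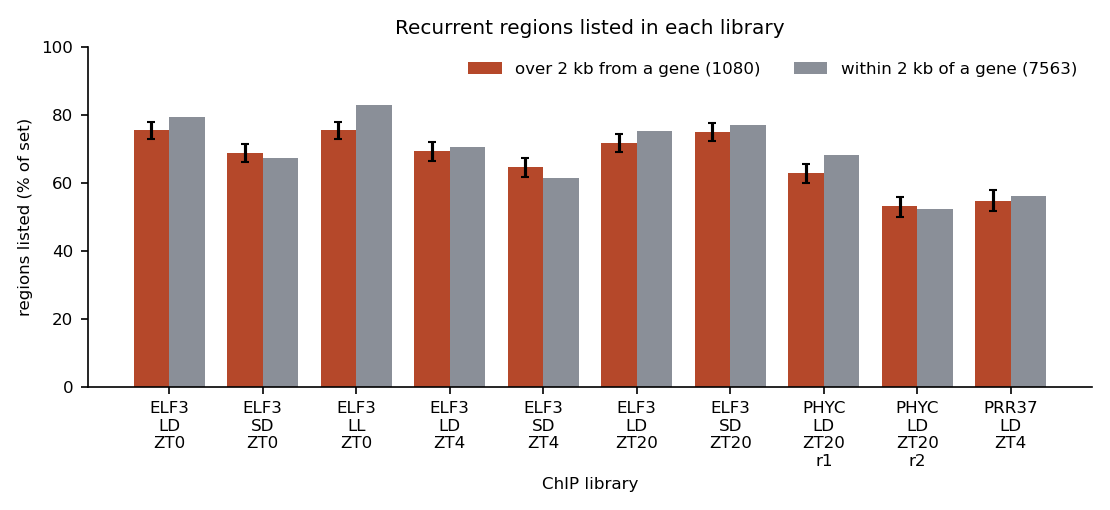
Percent of the 1080 far recurrent regions (left bars, with 95% Wilson intervals that cover counting error only) and of the 7563 near-gene recurrent regions (right bars) listed in each of the 10 ChIP libraries. Far regions range from 53.1% in PHYC 2 (r2) to 75.6% in ELF3 LD ZT0 and LL ZT0, and most libraries list the 2 sets at similar rates.

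The listing of far regions was therefore read relative to that of near-gene regions of the same library. Far minus near-gene, in points, was -3.70 in ELF3 LD ZT0, 1.65 in SD ZT0, -7.24 in LL ZT0, -1.35 in LD ZT4, 3.16 in SD ZT4, -3.42 in LD ZT20 and -2.03 in SD ZT20. It was -5.25 in PHYC 1, 0.828 in PHYC 2 and -1.45 in PRR37. Listing chose both sets of regions, so the libraries were not independent in the tests on this relative scale. On this scale the targets overlapped, with -1.85 ± 3.48 for ELF3 (SD, n = 7) and -1.96 ± 3.07 for the others (SD, n = 3), a difference of 0.109 points (exact two-sided permutation over libraries, p = 0.942, adjusted 0.942).

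Distance from the gene changed that picture for PRR37. Among the 112 far regions over 10 kb from a gene, a band chosen after its values were seen and so given without a test, the ELF3 libraries listed 68.8 to 82.1%, PHYC 1 listed 65.2%, PHYC 2 listed 45.5% and PRR37 listed 39 regions (34.8%, 95% Wilson interval 26.6 to 44.0%). Among the 731 regions at 2 to 5 kb, ELF3 libraries listed 64.4 to 76.9%, PHYC 1 listed 61.8%, PHYC 2 listed 55.5% and PRR37 listed 59.0%. PRR37 thus listed the smallest share beyond 10 kb and not at 2 to 5 kb. Its whole list showed the same lean, since 0.704% of all PRR37 peaks lay over 10 kb from a gene, against 0.899 to 1.40% of the peaks in ELF3 lists and 0.884 and 0.972% in the PHYC lists, while the share over 2 kb, 13.1%, lay within the 11.6 to 14.0% of the ELF3 lists. In the gene-poorest class of windows, PRR37 had 8.94% of its peaks and the other 9 lists had 11.4 to 13.0%. ELF3 LD ZT4, the ELF3 library of the same time and photoperiod, listed 77.7% of the regions over 10 kb and had 1.38% of its peaks there. PRR37 was a single library, so its target and its library cannot be told apart.

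The 349 regions beyond 5000 bp were compared with all recurrent regions within 5000 bp of a gene, a wider set than the near-gene regions. On that scale the ELF3 libraries exceeded the other 3 by 6.43 points (exact two-sided permutation, p = 0.0417, not adjusted). Listing chose the regions on both sides, so the share in a library depended on the shares in the others. This p-value therefore cannot establish a difference between targets. Without PRR37 the difference was 4.18 points (p = 0.194 in the same exact test), and leaving out each library in turn gave 4.18 to 8.10 points with p-values of 0.0119 to 0.194.

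**Figure D4:**
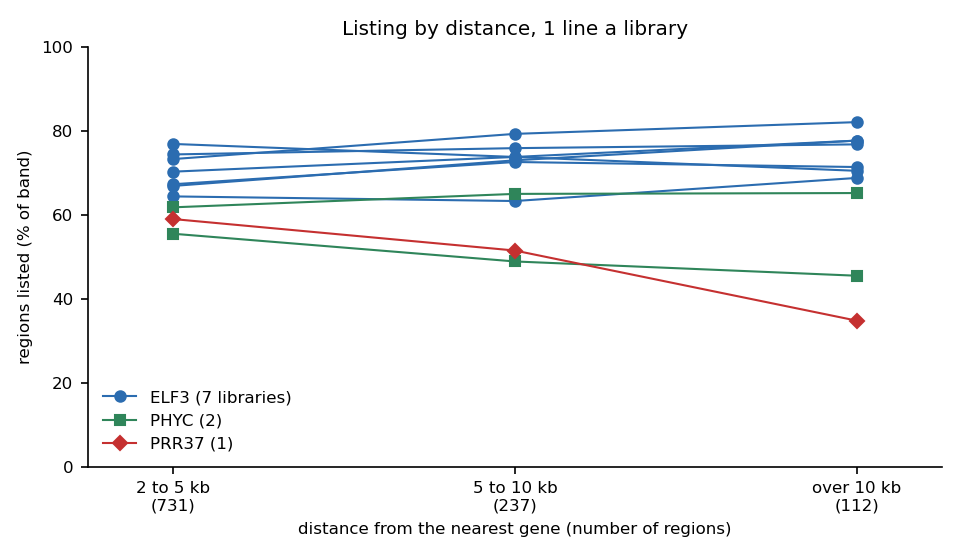
Percent of far recurrent regions listed (y axis) in each of the 10 libraries (1 line each, coloured by target) for regions 2 to 5 kb, 5 to 10 kb and over 10 kb from the nearest gene (x axis, with the number of regions). The ELF3 lines stay between 63.3 and 82.1%, and the PRR37 line goes through 59.0 and 51.5% to 34.8%.

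Regions listed for ELF3 alone, or mainly for the other targets, were rare far from genes, with shares close to those near genes. All 7 ELF3 lists and none of the other 3 held 18 far regions (1.67%), against 98 near-gene regions (1.30%) and 1.34% of all recurrent regions. The 3 with the highest fold were chr2:16756135-16756456, chr1:15233637-15234358 and chr5:3042184-3042480. At chr2:16756135-16756456, 2458.5 bp from LOC100841833, the folds were 2.51 in LD ZT0, 3.71 in SD ZT0, 2.90 in LL ZT0, 3.30 in LD ZT4, 2.77 in SD ZT4, 2.64 in LD ZT20 and 2.84 in SD ZT20. At chr1:15233637-15234358, 6195.5 bp from LOC100828766, the 7 folds ran from 2.73 to 3.43, and at chr5:3042184-3042480, 3736.0 bp from LOC100821883, from 2.12 to 3.28. All of these folds were above 2 and none passed q under 0.01.

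The reverse pattern, all 3 other lists and at most 2 ELF3 lists, held 24 far regions (2.22%), against 164 near-gene regions (2.17%) and 2.18% of all recurrent regions. The 3 with the highest fold lay 4336.0 bp from LOC100821640 (chr4:37292255-37292659), 3296.0 bp from LOC100841338 (chr3:4705047-4705347) and 2938.5 bp from LOC100845639 (chr4:37741749-37742188). Their folds were 2.86, 2.82 and 2.70 in PHYC 1, 2.25, 2.41 and 2.75 in PHYC 2 and 2.07, 2.36 and 2.66 in PRR37. Each of them was also in 2 ELF3 lists, as the rule of 5 lists requires.

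How far regions were shared between lists is a description, since listing chose the members and the rule of 5 lists favours sharing among the 7 ELF3 lists. Of the far regions in either of a pair of lists, 51.1 to 63.9% (median 56.5%) were in both for the 21 pairs of ELF3 lists, 44.9% for the PHYC pair and 36.0 to 54.3% (median 44.6%) for the 23 pairs of different targets. For near-gene regions the medians were 58.8% for ELF3 pairs and 46.6% for different targets, and the PHYC pair had 46.5%. Folds of the far regions held by both lists had Spearman correlations across regions, which are not independent replicates, of 0.38 to 0.57 between ELF3 lists, 0.49 between the PHYC lists and 0.27 to 0.50 between targets. A share in both depends on how many far regions each list held, which was lower in the PHYC and PRR37 lists, so the order of these shares says nothing of how alike the lists of a target are.

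Photoperiod was compared in the 6 ELF3 libraries that pair LD and SD at ZT0, ZT4 and ZT20. The share of far regions listed was 75.6% in LD against 68.9% in SD at ZT0, 69.4% against 64.6% at ZT4 and 71.9% against 75.0% at ZT20. LD was thus higher at ZT0 and ZT4 and lower at ZT20. Relative to near-gene regions LD was lower at all 3 times, with -3.70 points in LD against 1.65 in SD at ZT0, -1.35 against 3.16 at ZT4 and -3.42 against -2.03 at ZT20. The LD libraries averaged -2.82 ± 1.29 points and the SD libraries 0.927 ± 2.67 points (SD, n = 3 each), a difference of -3.75 points (exact two-sided permutation over libraries, p = 0.2, adjusted 0.333; the smallest p this design allows is 0.1). Paired by time, the same difference had p = 0.250 in an exact two-sided sign-flip test, the smallest that 3 pairs allow. The shortest peak of a list was 179 to 184 bp in these LD libraries and 192 to 202 bp in the SD libraries, and its part in the difference was not tested.

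All 3 LD lists and no SD list of ELF3 held 14 far regions (1.30%), against 145 near-gene regions (1.92%) and 1.84% of all recurrent regions. The highest fold among them was at chr2:45728132-45728509, 2094.5 bp from LOC100843649, with 2.60 in LD ZT0, 3.14 in LD ZT4 and 2.79 in LD ZT20. It was also held by ELF3 LL ZT0, at 2.75, and PHYC 1, at 2.86. The next were chr2:10097000-10097575, near LOC100829476 and also in both PHYC lists and PRR37, and chr5:26054037-26054425, near LOC100835376. All 3 SD lists and no LD list held 10 far regions (0.926%), against 66 near-gene regions (0.873%) and 0.879% of all recurrent regions. Among these, chr4:5077478-5077730, 2034.0 bp from LOC100838111, had 3.01 in SD ZT0, 2.12 in SD ZT4 and 2.09 in SD ZT20, and was held by LL ZT0 at 2.91. The other 2 with the highest folds were chr2:56642506-56642867, near LOC100823458, and chr2:14673590-14674183, near LOC100825597, with SD folds of 1.78 to 2.79 and 1.87 to 2.13. Both were also held by LL ZT0 and PRR37.

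By time, with 1 LD and 1 SD library each, the mean share of far regions listed was 72.2% at ZT0, 67.0% at ZT4 and 73.4% at ZT20. Relative to near-gene regions the means were -1.02, 0.906 and -2.73 points. With 2 libraries a time this was not tested. The ELF3 LL ZT0 library, sampled in constant light, had the lowest value of all libraries on this relative scale, -7.24 points.

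Of the 178 far regions in 9 lists, the missing list was PRR37 in 41 cases (23.0%), ELF3 SD ZT4 in 28 (15.7%), PHYC 2 in 26 (14.6%), ELF3 LD ZT4 in 25 (14.0%) and another in the rest. Near-gene regions in 9 lists lacked PRR37 in 18.8%, ELF3 SD ZT4 in 13.8%, PHYC 2 in 26.6% and ELF3 LD ZT4 in 9.01%.

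A q under 0.01 in at least 1 list was reached by 13 far regions (1.2%, 95% Wilson interval 0.705 to 2.05%), against 56 near-gene regions (0.740%, 0.571 to 0.960%) and 0.798% of all recurrent regions. In all 10 lists, where recurrence was complete, 60 of 289 far regions (20.8%) passed, against 26.0% of near-gene regions. Per library, the share of listed peaks past q was higher for far than for near-gene regions by 0.211 ± 0.187 points (SD, n = 10), above 0 in 9 of 10 libraries (exact two-sided sign-flip permutation, p = 0.00391, adjusted 0.00977). A single region carried this: without the member at the end of chromosome 2 the difference was 0.0885 points (p = 0.160 in the same exact test, above 0 in 6 libraries and below in 3). That region was past q in 9 lists, so the libraries were not independent here. With regions in all 10 lists added the difference was -0.701 points (p = 0.00586 in the same exact test), so its sign depended on the recurrence rule.

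The member at the end of chromosome 2, chr2:59130146-59130375, stood apart from all others. It lay 5067.5 bp beyond LOC100822214, with no gene between it and the chromosome end, and was the only far region within 5 kb of an end. Its fold was 12.1 in ELF3 LD ZT0, 15.8 in SD ZT0, 13.6 in LL ZT0, 12.3 in LD ZT4, 14.0 in SD ZT4, 12.6 in LD ZT20 and 9.86 in SD ZT20. It was 14.5 in PHYC 1 and 8.13 in PRR37, and PHYC 2 did not list it. All 9 lists that held it had it past q under 0.01, with -log10 q of 10.5 to 36.5, and all 3 targets were among them. The next highest fold of a far region was 5.53 and the highest of a near-gene region 5.59, so this region was above both in every list that held it, whatever the target. To which of the 3 tagged proteins, if any, it belongs cannot be told apart in these lists.

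The other 12 regions past q all passed in at least 1 ZT0 list. They had 20 peaks past q, of which 16 were in the 3 ZT0 libraries, 1 in the 3 ZT4 libraries and 3 in the 4 ZT20 libraries. All 3 ZT0 libraries were ELF3, whereas ZT4 included PRR37 and ZT20 included both PHYC libraries, so counts by time mix targets. The 3 ZT20 peaks were 2 in PHYC 1 and 1 in PHYC 2, with 0 in each ELF3 ZT20 library, and the ZT4 peak was in ELF3 SD ZT4. With the region at the end of chromosome 2 there were 29 such peaks, 19 (65.5%) at ZT0, 4 (13.8%) at ZT4 and 6 (20.7%) at ZT20. Near-gene regions had 95 such peaks with 64.2% at ZT0, 7.37% at ZT4 and 28.4% at ZT20. All 13 were listed in LD ZT0, SD ZT0 and LL ZT0, 10 in LD ZT4, 6 in SD ZT4, 12 in LD ZT20 and 8 in SD ZT20. PHYC 1 listed 11, PHYC 2 listed 9 and PRR37 listed 6.

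**Figure D5:**
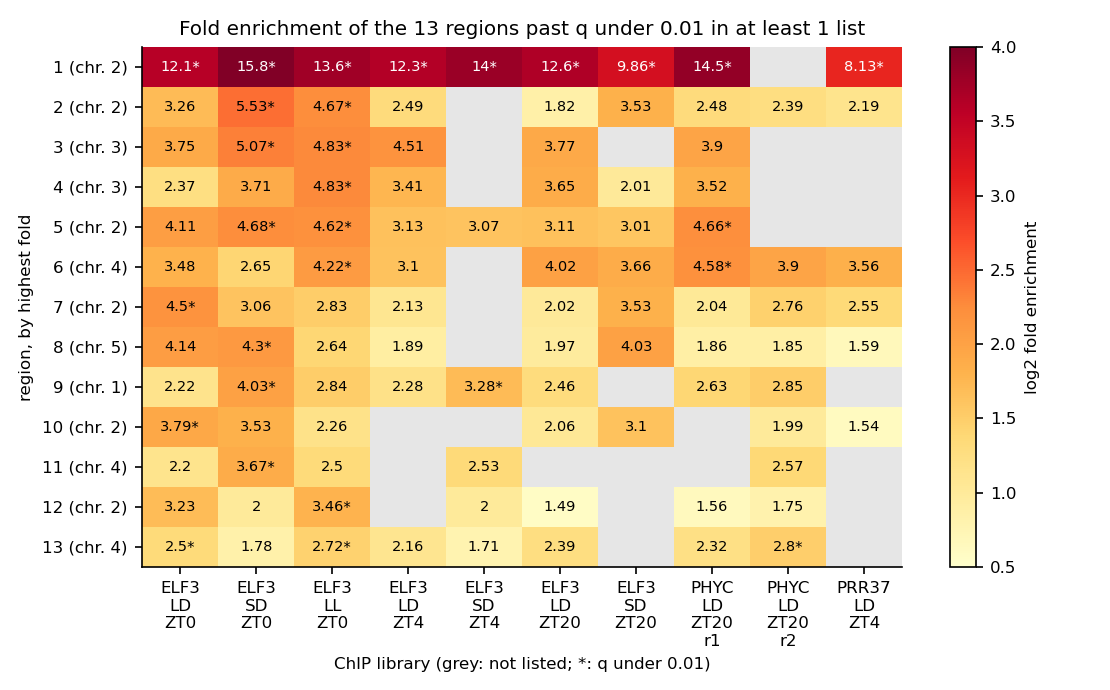
Fold enrichment (number in each cell, colour on a log2 scale) of the 13 far regions with q under 0.01 in at least 1 list (rows, by highest fold, with their chromosome) in the 10 ChIP libraries (columns; r1 and r2 are PHYC 1 and PHYC 2). Grey cells were not listed and an asterisk marks q under 0.01; the top row, at the end of chromosome 2, is at 8.13 to 15.8, and no other cell passes 5.53.

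The region with the next highest fold, chr2:9111167-9111916, 2240.5 bp from LOC100830815, varied with the library. Its fold was 3.26 in ELF3 LD ZT0, 5.53 in SD ZT0, 4.67 in LL ZT0, 2.49 in LD ZT4, 1.82 in LD ZT20 and 3.53 in SD ZT20, and it was not listed in SD ZT4. PHYC 1 had 2.48, PHYC 2 had 2.39 and PRR37 had 2.19. It was thus higher in SD than in LD at ZT0 and ZT20, with -log10 q of 8.53 in SD ZT0, and close to the typical fold of a list under the other targets.

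The region at chr3:16398550-16398789, 4001.5 bp from the pseudogene LOC100828804, was in 6 lists, with 3.75 in ELF3 LD ZT0, 5.07 in SD ZT0, 4.83 in LL ZT0, 4.51 in LD ZT4, 3.77 in LD ZT20 and 3.90 in PHYC 1. Where listed it was high, and 4 libraries did not list it at all: SD ZT4, SD ZT20, PHYC 2 and PRR37. A like set of lists held chr3:14907137-14907657, 2284.0 bp from LOC100825417, with folds of 2.01 to 4.83, and it too was missing from SD ZT4, PHYC 2 and PRR37.

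The region at chr2:5551263-5551575 lay deeper between genes, 10281.0 bp from LOC100844662. It was in all 7 ELF3 lists, with 4.11 in LD ZT0, 4.68 in SD ZT0, 4.62 in LL ZT0, 3.13 in LD ZT4, 3.07 in SD ZT4, 3.11 in LD ZT20 and 3.01 in SD ZT20. The 3 ZT0 values were above the other 4. PHYC 1 had 4.66, while PHYC 2 and PRR37 did not list it, so the 2 PHYC libraries differed here under the same labels. The region passed q under 0.01 in 3 lists, with -log10 q of 2.61 in ELF3 SD ZT0, 2.19 in ELF3 LL ZT0 and 2.83 in PHYC 1. At chr4:23822110-23822397, 8681.5 bp from LOC100821636, both PHYC libraries were high, with 4.58 and 3.90, and PRR37 had 3.56. The ELF3 lists that held it had 2.65 in SD ZT0 and 3.1 to 4.22 in the other 5, and SD ZT4 did not list it.

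A pair of regions sat in the same gap on chromosome 2, between LOC100820888 and LOC100829694. At chr2:7990121-7990834 the folds were 4.50 in ELF3 LD ZT0, 3.06 in SD ZT0, 2.83 in LL ZT0, 2.13 in LD ZT4, 2.02 in LD ZT20 and 3.53 in SD ZT20, with 2.04, 2.76 and 2.55 in PHYC 1, PHYC 2 and PRR37. At chr2:7987150-7988164 they were 2.40, 2.98, 2.96, 1.68, 1.98 and 4.11 in the same ELF3 libraries, with 2.15, 2.09 and 3.03 in PHYC 1, PHYC 2 and PRR37. Both lacked SD ZT4, and the highest library was LD ZT0 at the first and SD ZT20 at the second. The second was picked after its values were seen.

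The broad region at chr5:10935203-10936503, 1301 bp wide and 2163.0 bp from LOC100839874, fell into 2 levels. Its fold was 4.14 in ELF3 LD ZT0, 4.30 in SD ZT0 and 4.03 in SD ZT20, against 2.64 in LL ZT0, 1.89 in LD ZT4 and 1.97 in LD ZT20. It was 1.86 in PHYC 1, 1.85 in PHYC 2 and 1.59 in PRR37. Among the 5 with q under 0.01 in most lists, chr4:34504422-34504776, 4280.0 bp from LOC100831765, passed in 3 lists although its folds were only 1.71 to 2.80. It reached 2.50 in ELF3 LD ZT0, 2.72 in LL ZT0 and 2.80 in PHYC 2, with -log10 q of 2.49, 3.60 and 3.76. The last 2 of the 10 highest folds did not pass q. They were chr2:15356409-15356828, 2993.5 bp from LOC100833489, with a highest fold of 4.23, and chr4:33089689-33090031, 10050.0 bp from LOC112268685, which all lists but PRR37 held at 2.85 to 4.22.

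The 5 regions farthest from a gene had highest folds of 2.18 to 3.41, against a median of 2.71 over all far regions, and no q under 0.01. The median highest fold was 2.73 for the 112 regions over 10 kb from a gene and 2.70 for the 731 at 2 to 5 kb. The farthest, chr3:25256025-25256270, lay 92577.5 bp from LOC100837706 and was in 5 lists, all ELF3, at 2.16 in SD ZT0, 1.73 in LL ZT0, 1.80 in LD ZT4, 2.18 in SD ZT4 and 1.56 in LD ZT20. The next were chr1:22758156-22758395, 53467.5 bp from the lncRNA gene LOC106865791, at 2.35 to 2.64 in 5 lists, and chr1:36750073-36750578, 47125.5 bp from LOC100841817, at 2.17 to 2.71 in 8 lists. The region chr3:23584642-23585346, 30627.0 bp from LOC100828903, was in every list but ELF3 SD ZT4 at 2.98 to 3.41, a narrow range over all 3 targets. The fifth, chr4:29733630-29734155, 30198.5 bp from the tRNA gene TRNAH-GUG, was in 5 lists at 1.97 to 2.69. PRR37 held 1 of these 5 regions.

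Most nearest genes carry only a locus number. Those with a name were picked after their values were seen. AGL6, a MADS-box gene of floral development, was nearest to chr3:52568761-52569322 at 3066.5 bp, in 7 lists. Its folds were 3.09 in ELF3 SD ZT0, 2.79 in LL ZT0, 2.63 in LD ZT4, 2.34 in SD ZT4, 2.54 in LD ZT20, 2.44 in SD ZT20 and 2.34 in PHYC 1, and ELF3 LD ZT0, PHYC 2 and PRR37 did not list it. The genes of miR156, which represses SPL factors and delays the change to the adult phase, were nearest to a pair of regions. MIR156H lay 5057.5 bp from chr3:49739750-49739989, in 8 lists at 2.36 to 3.38, and MIR156G lay 7198.5 bp from chr2:4043575-4044198, in 5 lists at 1.84 to 2.31. MIR159B, whose product targets GAMYB factors, lay 3294.5 bp from chr2:1093752-1094191, in 8 lists at 2.03 to 3.03, with the highest in PRR37. MIR168, whose product targets ARGONAUTE1, lay 3125.0 bp from chr3:1782035-1783065, in 8 lists at 1.85 to 3.05. SWN3 lay 5692.5 bp from chr3:51062349-51063008, in 7 lists at 1.92 to 2.44. Besides TRNAH-GUG, the other named nearest genes were MIR1139, MIR5181D and the tRNA genes TRNAI-GAU, TRNAG-CCC, TRNAA-UGC, TRNAT-CGU and TRNAD-GUC. None of the regions with a named nearest gene passed q under 0.01 in a list, and nearness to a gene does not show that the gene is a target.

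At the limit of the rule, the 3 members nearest to a gene lay at 2001.0 bp (chr2:5249449-5249701), 2002.0 bp (chr1:29190989-29191559) and 2003.0 bp (chr1:65537482-65537756), with highest folds of 2.83, 2.83 and 3.87. The 3 recurrent regions just outside lay at 1998.5 bp (chr2:21147803-21148084), 1996.0 bp (chr2:13912501-13912809) and 1995.5 bp (chr3:2017246-2017897), with highest folds of 2.42, 3.1 and 2.85.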

How the data were processed

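Per the labels and the study's methods, chromatin of 2-week-old seedlings was sonicated, precipitated with an anti-FLAG gel and sequenced, and the authors aligned the reads and called peaks with MACS2. The submitters' processing notes also name Trimmomatic, Bowtie2, Picard and deepTools. Which control the peaks were called against is not given in the sources used here, and the input sample was not analysed here. The deposited narrowPeak lists give each peak's fold enrichment (a ratio over local background), its -log10 p and -log10 q, and a score. The deposited score was used only to check the -log10 p. Peaks were called per library, and 7 peaks outside the 5 chromosomes were left out. Depth is unknown, so intervals (Wilson, 95%) cover only the counting of regions.

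Overlapping peaks were merged with Python 3.11.15, numpy 2.4.6 and pandas 2.3.3. Of several peaks of a library in a region, the one with the highest fold was used, also for q and width. Distances were measured to 31197 genes of the RefSeq assembly Brachypodium_distachyon_v3.0, without strand, while the methods name the build Bdistachyon_314_v3.1 and the submitters' notes name TAIR10, a build of another species. Coordinates of regions are those of the lists, 1-based, and distances assume that both builds place chromosomes alike. Tests were exact permutations over libraries, adjusted over 5 tests (Benjamini-Hochberg), and were tested on simulated data. The regions named were the 10 with the highest fold, the 5 farthest from a gene, the 5 past q under 0.01 in most lists, the 3 highest of each listing pattern and the 3 nearest to the distance limit on each side, with others said to be picked after their values were seen. The members, lists and rules were chosen with earlier results of these data known. Alternatives changed the distance, annotation, recurrence, merging, peak threshold, list length and libraries.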

Additional observations from a re-analysis of the deposited data

Results flagged for a closer look

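Of 47 sets of values tested for a sample far from the others of its target, 3 were past the 95% limit, where chance flags about 1 in 20. All are folds over the ELF3 lists, which differ in time and photoperiod. At chr2:15356409-15356828, near LOC100833489, ELF3 SD ZT0 was at 4.23 and the other 3 ELF3 lists at 2.82 to 2.95. At chr3:23584642-23585346, the region 30627.0 bp from LOC100828903, ELF3 SD ZT20 was at 3.41 and the other 5 ELF3 lists at 2.98 to 3.14. At chr4:2353186-2353635, in the run of 4 regions, ELF3 LL ZT0 was at 3.73 and the other 5 ELF3 lists at 2.36 to 2.83.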

How the results depend on the processing

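The number of far regions was 349 beyond 5000 bp, 555 for 7 to 9 lists and 512 for peaks of -log10 p above 2, and 904 to 963 of the 1080 were still in 5 lists when each library was left out. Every difference given below for regions beyond 5000 bp is against all recurrent regions within 5000 bp of a gene. The difference between ELF3 and the other targets relative to near-gene regions, 0.109 points, was 6.43 beyond 5000 bp, 4.18 beyond 5000 bp without PRR37, 14.6 for far regions alone, -0.531 with protein-coding genes only, -0.439 with summits grouped within 200 bp, -2.66 for -log10 p above 2 and -0.562 for lists of 12000 peaks. It was -1.54 to 1.50 without each library. LD minus SD, -3.75 points, was 2.75 for far regions alone and -5.23 to -2.63 without each library. The difference in log2 fold was -0.00777 beyond 5000 bp, 0.0134 for -log10 p above 2, -0.0149 averaged over numbers of lists and -0.0297 to -0.0232 without each library. The difference in the share past q was -0.701 points with regions in all 10 lists added, 0.0885 without the region at the end of chromosome 2 and 0.164 to 0.235 without each library. The difference in width was -4.85 bp with regions in all 10 lists added and -0.0556 to 2.22 bp without each library, the lowest without PRR37. The share in the gene-poorest class of windows was 23.8% beyond 5000 bp. The share with another far region within 10 kb was 26.3% with protein-coding genes only, 14.2% for 7 to 9 lists, 24.0% with summits, 11.9% for -log10 p above 2, 17.8% for lists of 12000 peaks, 26.8% with regions in all 10 lists added and 44.9% within 50 kb. Equal list lengths, regions in all 10 lists, the chromosome 2 end and the fit without PRR37 beyond 5000 bp were chosen after seeing the data. The causes were not tested. Pairing LD with SD by time gave the same difference, with p = 0.250 in an exact sign-flip test; the labels give no replicate numbers to pair by.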
